A study of Mus musculus with 17 samples.

Results

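The 17 single Tomato-positive cells of mouse back skin were ordered by the mean of Col1a1, Col1a2 and Col3a1, the genes of the most abundant fibrillar collagens of skin. The 6 cells with the highest mean and the 6 with the lowest were selected on these measured values, 12 of 17 cells in all, and compared across all other genes. Each cell was its own library, named here by the number its label gives. All cells came from adult C57BL/6 mice that carried a Prrx1-CreERT transgene and a Tomato reporter and had received tamoxifen for 3 days (2 mg per 30 g of body mass each day), so the high and low cells shared genotype, agent and time. CreERT driven by Prrx1 marks the cells in which that promoter was active when tamoxifen was given. The skin was digested with elastase (0.2 mg/ml, 20 min) and type IV collagenase (4 mg/ml, 1.5 h), and sorted cells were picked by hand under a fluorescence microscope. No animal is named for any cell, so the 17 cells count as 1 sample. Every difference below describes these cells, with no test, and an SD is the spread over cells of 1 group.

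Fibrillar collagen is made as procollagen chains that enter the endoplasmic reticulum (ER), where prolines and lysines are hydroxylated, sugars are added and chains are folded into a triple helix with the help of isomerases and the collagen chaperone HSP47 (gene Serpinh1). The trimers are carried to the Golgi and out of the cell, trimmed at their ends by proteases, assembled into fibrils with small proteoglycans and minor collagens, and cross-linked by lysyl oxidases. Type I collagen holds chains of Col1a1 and Col1a2, type III only chains of Col3a1, and type V, from Col5a1, Col5a2 and Col5a3, is built into the same fibrils. Dermal fibroblasts are the main source of these proteins in skin.

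Because Serpinh1, Fkbp7, Vkorc1 and Col5a1 were higher in every high cell than in any low cell, sequence next to their starts is shown beside that of the ranking gene Col3a1. Each line gives 100 bases of the gene's own strand, from base 120 to base 21 before the RefSeq start (build GRCm38.p6), and capitals mark, on either strand, the letters of a TATA box (TATAAA), of a CCAAT box or of a GC box (GGGCGG).
Col3a1 (chr1:45311418-45311517, plus strand): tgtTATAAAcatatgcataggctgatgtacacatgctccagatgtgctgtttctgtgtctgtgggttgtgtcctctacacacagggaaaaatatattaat
Col5a1 (chr2:27886305-27886404, plus strand): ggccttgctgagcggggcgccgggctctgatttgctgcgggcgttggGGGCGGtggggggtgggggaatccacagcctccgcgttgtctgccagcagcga
Serpinh1 (chr7:99353260-99353359, minus strand): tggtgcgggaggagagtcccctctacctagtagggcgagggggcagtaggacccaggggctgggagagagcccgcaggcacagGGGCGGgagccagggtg
Fkbp7 (chr2:76673119-76673218, minus strand): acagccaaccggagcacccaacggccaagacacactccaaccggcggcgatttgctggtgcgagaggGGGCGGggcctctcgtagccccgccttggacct
Vkorc1 (chr7:127895638-127895737, minus strand): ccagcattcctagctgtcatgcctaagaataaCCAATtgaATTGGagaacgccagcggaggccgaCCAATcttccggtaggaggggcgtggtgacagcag

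The letters GGGCGG, to which Sp1-type factors can bind, begin 73 bases before the start of Col5a1, 37 before that of Serpinh1 and 53 before that of Fkbp7. In the 250 bases before the start they were present in 59.2% of 7544 RefSeq entries of genes compared here and in 32.7% of all 32851 entries. CCAAT was present in 35.0% and 33.9% of the same entries. The ER stress element, which stands before many genes of the unfolded protein response, was searched as CCAAT followed after 9 bases by CCACG, in either direction. It was present in 8 of 23 entries for general ER chaperone and unfolded protein response genes, against 0.113% of all entries. None of the 18 entries for collagen folding genes held these letters, nor did the 10 entries of the genes called higher below. A match describes letters in this window and shows no bound factor.

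The table holds log-scale values, read here as log2(FPKM + 1), and above 3 their sorted values differed between cells by at most 0.0167, while below that cells differed in how many genes shared their lowest value, so depth is unknown and a value mainly gives a gene's place in its cell. The high cells were, in order, cells 13, 1, 17, 8, 14 and 3, with 3-gene means from 12.32 to 11.15. The low cells were cells 4, 5, 11, 6, 15 and 7, with means from 9.67 to 8.36. The 5 cells between spanned 11.13 (cell 12) to 9.83 (cell 10). Cell 3 was only 0.0183 above cell 12, the first cell outside the high group, and cell 4 was 0.159 below cell 10. The plot of the ranking genes by cell shows a graded series with no wide gap at either border.

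**Figure D1:**
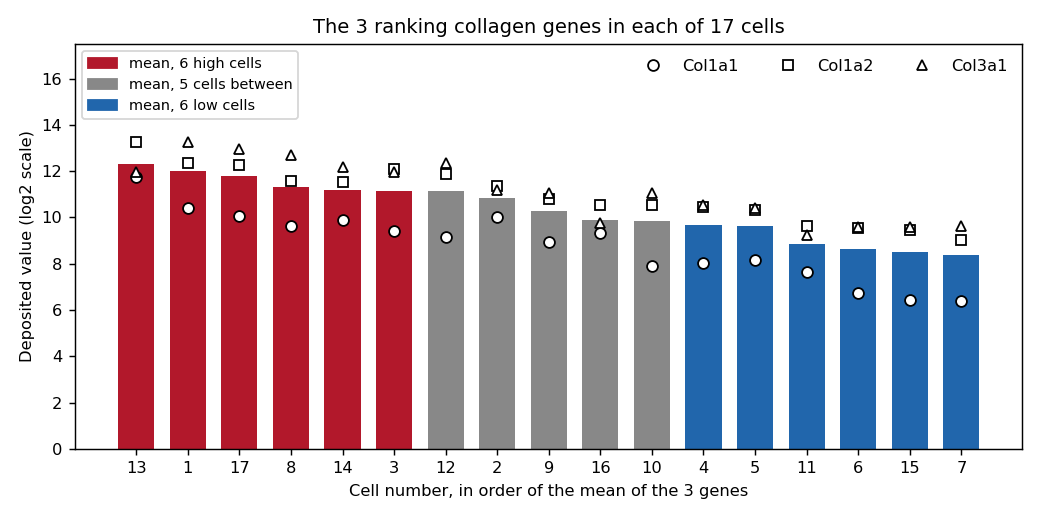
Deposited values (log2 scale, vertical axis) of Col1a1, Col1a2 and Col3a1 (open symbols) and their mean (bars) in each of 17 cells, in order of that mean; red, grey and blue bars are the 6 high, 5 between and 6 low cells. The means run from 12.32 in cell 13 to 8.36 in cell 7, and cell 3 and cell 12 stand side by side at 11.15 and 11.13.

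All 3 chains took part in the ranking, and these values are what chose the cells. Col1a1 (chromosome 11, 94936224 to 94953042) was at 10.19 ± 0.84 in the high cells (SD, n = 6) and 7.23 ± 0.81 in the low cells. Col1a2 (chromosome 6, 4504814 to 4541544) was at 12.18 ± 0.63 and 9.74 ± 0.54, and Col3a1 (chromosome 1, 45311538 to 45349706) at 12.51 ± 0.56 and 9.85 ± 0.52. Among 8431 symbols, Col3a1 stood at places 2 to 12 from the top in the high cells and at places 58 to 192 in the low cells. Col1a1 stood at places 15 to 172 and 435 to 1234. Even the low cells thus had Col1a2 and Col3a1 among their 228 highest genes.

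The chains did not keep a constant distance from each other. Col1a2 was above Col1a1 in 17 of 17 cells, by 1.51 to 2.69 in the high cells and by 2.01 to 3.02 in the low cells, ranges that overlap. Col3a1 was above Col1a2 in 12 of 17 cells. In cell 13 the order was turned, with Col1a2 at 13.26, Col3a1 at 11.96 and Col1a1 at 11.75, whereas in cell 1 Col3a1 led at 13.26. The highest value in each cell was 13.69, which leaves little room above these genes. The libraries read transcript ends, while FPKM divides by transcript length. Whether these distances and places between genes reflect numbers of messages was not tested.

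High and low cells were both fibroblast-like by their markers. Each had 14 to 16 of the 16 measured fibroblast markers at a value of 1 or more, with summed levels of 114 to 140 in high cells and 107 to 129 in low cells. Prrx1, the mesenchymal transcription factor whose promoter drives the Cre, was at 4.88 ± 0.96 in the high and 5.66 ± 1.68 in the low cells, a difference of -0.78 with overlapping ranges. Of 6 measured pericyte or smooth muscle markers, 3 or more were present in high cells 1 and 3 and low cells 4 and 5. Cell 2, between the groups, had 4 of them, so these were cells 1 to 5 and no other cell. There Acta2 (1.10 to 2.00) and Myl9 (1.22 to 1.66) stood near the cut-off of 1. Their highest values were in other high cells with fewer than 3 of these markers, Acta2 at 5.64 in cell 8 and Myl9 at 4.01 in cell 14. Kcnj8 was at 4.98 and 6.48 in cells 4 and 5. The summed level was 1.002 to 6.84 in high and 0.15 to 11.4 in low cells, and Abcc9 was not detected in high cells. No other cell type reached 3 markers in a high or low cell, but endothelial and Schwann or melanocyte lists had only 3 measured markers, keratinocyte and adipocyte lists 2, and immune and erythroid or muscle lists 1. Plvap, an endothelial diaphragm gene, reached 1 in 4 high cells and no low cell. The other measured endothelial markers, Tek and Esam, were lower on average in the high cells. Tek differed by -1.35 and reached 1 in 2 high and 3 low cells. Esam differed by -0.31 and reached 1 in 1 high and 1 low cell.

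Technical values overlapped between the groups. The number of genes at a cell's lowest value was 867 to 1760 in high cells and 950 to 1709 in low cells, and ribosomal protein genes made up 5.92% to 8.57% and 5.46% to 10.4% of the back-transformed sum. Cells 1 to 5, 6 to 14 and 15 to 17 were treated as 3 sets, which the labels do not name. Each group held 2, 3 and 1 cells of these sets, so the sets are balanced between groups. The Y-linked gene Eif2s3y was at 2.54 to 7.35 in high cells and 0.18 to 3.83 in low cells, while Ddx3y was at 0.83 to 6.91 and 4.71 to 7.44. Whether animal of origin has a part in any difference was not tested.

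Of 8431 symbols, 7540 had a value of 1 or more in at least 3 of 17 cells, which left 7537 genes once the ranking genes were removed. A gene was called when every high cell was above every low cell, or below, and the group means differed by at least 1. By this rule 12 genes were higher (0.159% of genes compared) and 8 lower (0.106%). How many genes an arbitrary split of the cells into groups of the same size would call was not tested. Some genes would separate under any such split, so a call alone does not tie a gene to the collagen ranking. By the looser rule of means differing by at least 1, 1418 genes were higher (18.8%) and 1382 lower (18.3%), so single differences of this size were common in both directions. These shares are the background for each count below. Counts and medians over list members take in only those that passed the value filter, and they describe the lists.

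The genes called higher included 3 of the collagen pathway, Col5a1, Serpinh1 and Fkbp7. Serpinh1 (chromosome 7, 99345376 to 99353239, minus strand) encodes HSP47, the chaperone that binds folded procollagen in the ER. It was at 8.77, 9.15, 9.53, 9.25, 8.32 and 8.16 in high cells 13, 1, 17, 8, 14 and 3. In low cells 4, 5, 11, 6, 15 and 7 it was at 8.15, 7.82, 7.67, 6.53, 8.02 and 6.96. The means were 8.86 ± 0.55 and 7.52 ± 0.64 (SD, n = 6 each), a difference of 1.34. The groups only just separate, cell 3 against cell 4, and of the cells between, cells 12 and 2 (8.95 each) were within the high range, cell 9 was above it at 9.59, and cells 16 and 10 were within the low range.

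Fkbp7 (chromosome 2, 76663044 to 76673116, minus strand) encodes a peptidyl-prolyl isomerase of the ER, an enzyme class that speeds the turning of proline bonds during folding. It was nearly constant in the high cells, at 9.52 to 10.72 with a median of 9.81. The low cells scattered widely, at 3.12, 8.19, 4.64, 9.29, 5.32 and 7.99 in cells 4, 5, 11, 6, 15 and 7. The difference of means was 3.49. The SD was 0.42 in high and 2.41 in low cells, so the gene was not uniformly reduced among low cells.

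Col5a1 (chromosome 2, 27886425 to 28039514) encodes the type V chain that starts type I fibrils and limits their width. It was at 7.03, 8.03, 8.07, 7.66, 7.34 and 6.95 in high cells 13, 1, 17, 8, 14 and 3. Low cells 4, 5, 11, 6, 15 and 7 gave 6.56, 6.00, 6.28, 6.46, 5.80 and 5.06. The difference of means was 1.49 and the groups did not overlap. Exons of 2810430I11Rik and Gm13372 overlap the gene, so some of its value may belong to them.

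Col5a2, the partner chain, was at 8.36 ± 0.42 in high and 6.94 ± 1.12 in low cells, a difference of 1.43. Cell 7, the cell with the lowest 3-gene mean, had Col5a2 at 8.48 and made the groups overlap. Col5a3, a less widely used chain, was at 6.05 ± 1.69 and 4.69 ± 0.87, and cell 3 of the high group, at 3.34, lay below every low cell. Col27a1 was under 1 in most cells of both groups and differed by 0.06 (-0.71 without cell 14). Of 8 other fibrillar collagen genes on the list, 4 were measured and passed, 3 of them were higher by at least 1, and the median difference was 1.40, beside a median over all genes close to 0.

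Non-fibrillar collagens were largely higher with the fibrillar ones. Of 32 listed genes 14 were measured and passed: 8 were higher by at least 1, 2 were lower by at least 1, none was called, and the median difference was 1.25. The mean over the 14 genes was 4.10 to 5.54 in high cells and 2.48 to 3.98 in low cells, without overlap. The network-forming basement membrane chains Col4a1 (7.26 ± 1.25 against 4.22 ± 1.85, difference 3.04) and Col4a2 (6.04 ± 0.98 against 3.18 ± 1.39, difference 2.86) had 2 of the largest differences. Col15a1 and Col18a1, which sit next to basement membranes, differed by 2.98 and 2.05, and the fibril-associated Col16a1 by 2.78.

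Col4a1 shows how such a gene varied by cell. High cells 13, 1, 17, 8, 14 and 3 had 8.57, 7.73, 5.18, 8.38, 6.91 and 6.80. Low cells 4, 5, 11, 6, 15 and 7 had 3.34, 5.34, 3.61, 6.86, 1.47 and 4.70. Cells 17 and 3 of the high group lay within the low range and cells 5 and 6 of the low group within the high range.

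The 3 main chains of type VI collagen, which forms beaded filaments around cells, differed by less and more evenly. Col6a1 was at 8.17 ± 0.59 in high and 6.77 ± 0.40 in low cells, Col6a2 at 8.05 ± 0.90 and 6.42 ± 0.53, and Col6a3 at 7.11 ± 1.04 and 6.01 ± 0.82. Their differences were 1.40, 1.63 and 1.10. The ranges of Col6a1 overlapped only slightly, with 7.07 the lowest high cell and 7.25 the highest low cell.

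Col14a1 and Col12a1, which attach to the surface of fibrils, went the other way. Col14a1 was at 4.13 ± 2.91 in high and 6.67 ± 1.78 in low cells, a difference of -2.54, and Col12a1 at 3.31 ± 2.44 and 4.40 ± 2.89, a difference of -1.10. Both overlapped over most of their range, and Col12a1 was at 0.05 when cells were ranked by Col1a1 alone. Of all 18 collagen genes that passed besides the ranking 3, 16 were higher on average in high cells, and 12 were higher within each of the 3 sets of cells, beside 13.3% of all genes compared.

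**Figure D2:**
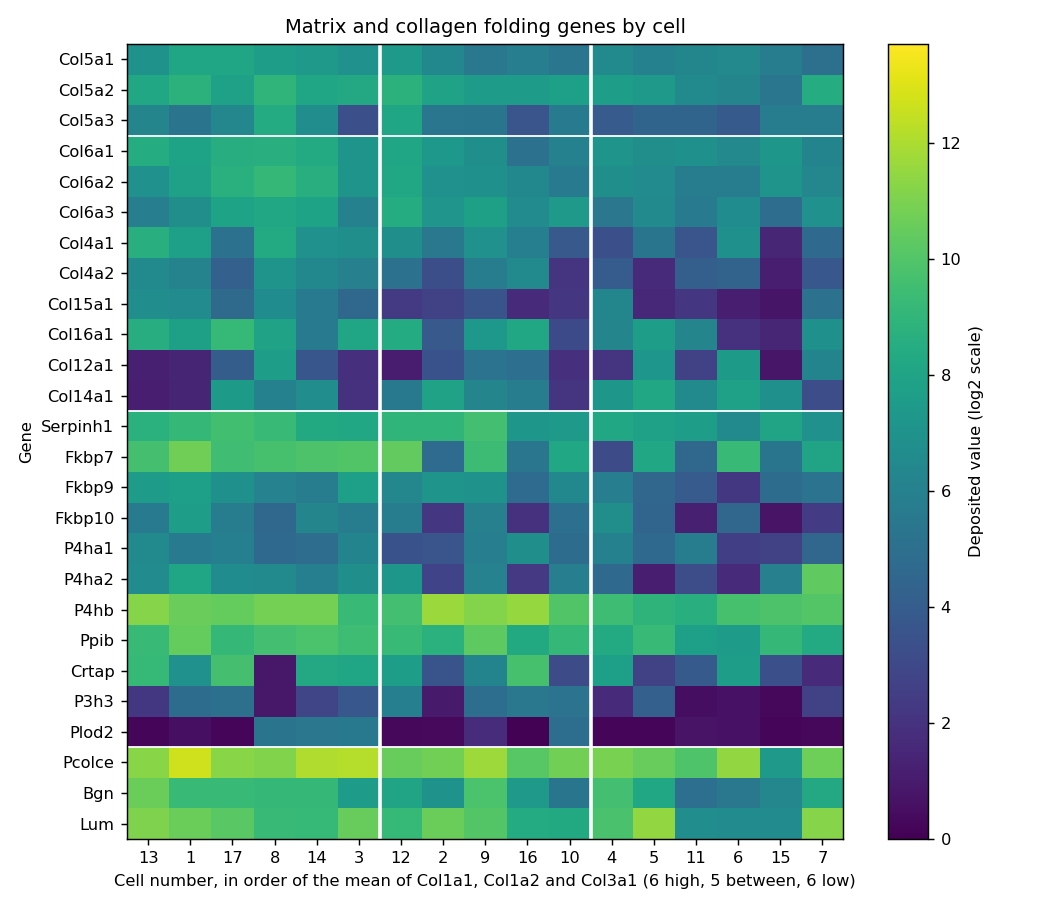
Deposited values (colour, log2 scale) of 26 matrix and collagen folding genes (rows) in 17 cells (columns, in order of the 3-gene mean; white vertical lines part the 6 high, 5 between and 6 low cells). The rows are a selection from the lists. Folding genes not shown are P3h1, Plod1, Plod3, Fkbp14 and Tmem38b, which were not higher by at least 1, and P3h4 and Colgalt1, which were. Serpinh1 and Col5a1 are brighter in every high cell than in any low cell while cells between take values of both groups, Fkbp7 is uniformly bright in the high cells only, and Col14a1 and Col12a1 are dark in high cells 13, 1 and 3.

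Genes that modify and fold procollagen in the ER were higher in the high cells as a list. Of 21 listed, 19 were measured and 18 passed; 13 were higher by at least 1, 1 was lower by at least 1 (Tmem38b, an ER ion channel gene, -1.28), 2 were called, and the median difference was 1.43. The mean over the 18 genes was 4.84 to 5.77 in high cells and 3.31 to 4.41 in low cells, again without overlap. Plod2, counted among the 13, reached 1 in 5 cells, of which 3 were high. It passed the value filter only through the high cells and is part of this mean. The members were chosen knowing earlier results of these cells, so the count is a description. In the 3 sets of cells the median difference was 1.22 (cells 1 to 5), 1.70 (cells 6 to 14) and 0.66 (cells 15 to 17).

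Prolyl 4-hydroxylase makes the hydroxyproline that keeps the triple helix stable at body temperature. Its shared subunit P4hb, also a disulfide isomerase, was at 10.53 ± 0.65 in high and 9.43 ± 0.56 in low cells, a difference of 1.10. The catalytic subunit P4ha1 differed by 1.25 (5.64 ± 0.72 against 4.38 ± 1.50). P4ha2 differed by 2.26, but with an SD of 3.40 in low cells, since cell 7 stood at 10.36 and cell 5 at 1.14. P4hb overlapped through cell 3 of the high group, which at 9.31 lay among the low cells.

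The prolyl 3-hydroxylation complex joins P3h1, Crtap and the isomerase cyclophilin B (Ppib). Ppib was at 9.61 ± 0.47 in high and 8.41 ± 0.70 in low cells, a difference of 1.21, with 9.14 in the lowest high and 9.26 in the highest low cell; exons of Snx22 overlap it. Crtap differed by 2.67, and 5 high cells had 6.93 or more while cell 8 had 0.89. P3h1 differed by 0.71 with wide spread (SD 2.61 and 1.76), and by -0.13 without cell 14. The related P3h3 and P3h4 differed by 1.59 and 2.22.

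Lysyl hydroxylases prepare cross-link sites and sugar attachment. Plod2, whose product acts on the telopeptides, reached 1 in 3 high cells and in no low cell, so its difference of 2.48 rests on cells 8, 14 and 3. Plod1 and Plod3 differed by 0.30 and 0.11, and by -0.30 without cell 1 and -0.44 without cell 11. Colgalt1, a collagen galactosyltransferase, differed by 1.53 but not when cells were ranked by Col3a1 alone, where it was at -0.28. Among further ER isomerases, Fkbp10 differed by 2.58 (5.94 ± 1.02 against 3.36 ± 2.31), Fkbp9 by 2.53 (6.97 ± 0.86 against 4.43 ± 1.27) and Fkbp14 by -0.42 (0.20 without cell 7).

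Fkbp9 came close to separating the groups. High cells 13, 1, 17, 8, 14 and 3 had 7.55, 7.72, 6.90, 6.07, 5.81 and 7.76. Low cells 4, 5, 11, 6, 15 and 7 had 5.88, 4.53, 3.93, 2.21, 4.82 and 5.24. Only cell 14 and cell 4 crossed.

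General ER chaperones and genes of the unfolded protein response, which serve all secreted proteins, differed less. Of 31 listed, 26 were measured and passed; 6 were higher and 4 lower by at least 1, shares of which neither is far from the background, and the median difference was 0.38. Hspa5, the major ER chaperone BiP, was at 8.22 ± 1.003 in high and 8.61 ± 0.59 in low cells, a difference of -0.39, and Hsp90b1 differed by -0.12 (0.31 without cell 7). The largest differences were 2.97 for Dnajb11, a BiP co-chaperone, 2.60 for Pdia5, a disulfide isomerase, and -1.97 for Dnajb9. The list means overlapped, at 4.36 to 5.28 and 3.91 to 5.28. Whether this list and the collagen folding list differ from each other was not tested.

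Genes for entry into the ER and export to the Golgi lay between these lists. All 63 were measured and passed; 19 were higher and 3 lower by at least 1, 50 of 63 were above 0, and the median difference was 0.59. Ssr4, a subunit of the translocon-associated complex, differed by 2.27 and Sec22b, a vesicle fusion protein, by 2.33, while Srp54a of the signal recognition particle differed by -2.22. Mia3, which encodes the TANGO1 receptor that loads procollagen at exit sites, differed by 0.62 (-0.40 without cell 11) and was listed at 0 in at least 1 cell of each group. By set of cells the median difference of the list was 1.22, 0.55 and 0.07, smallest in cells 15 to 17.

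**Figure D3:**
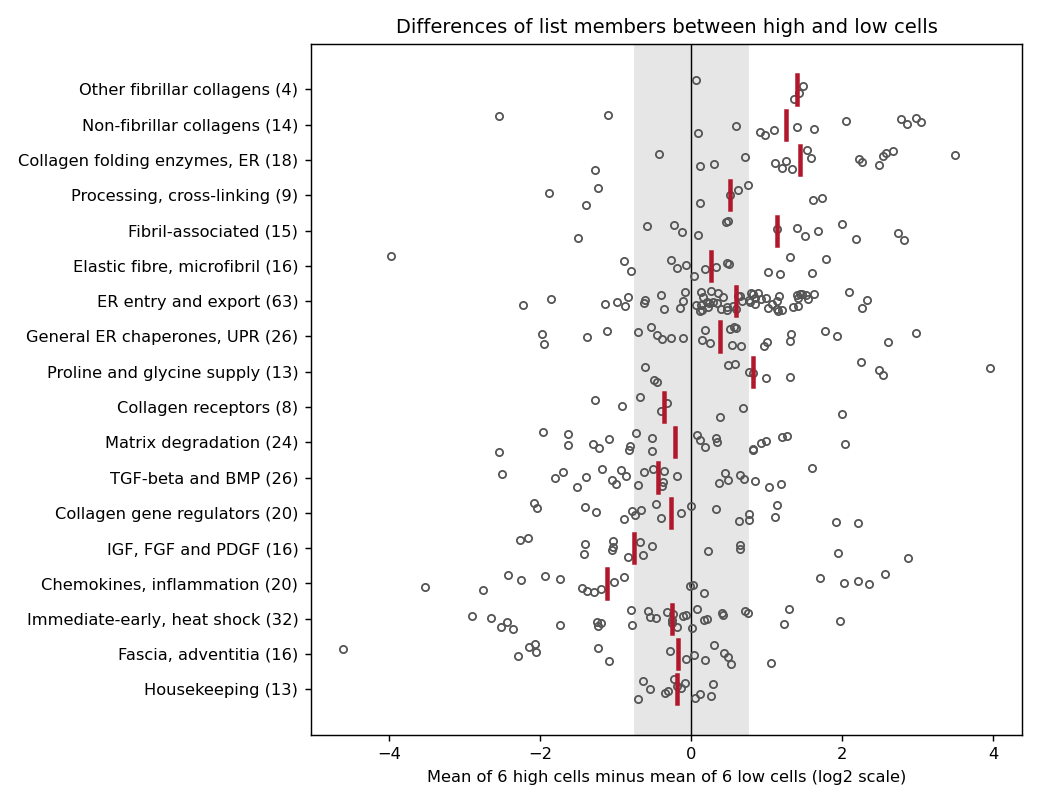
Difference of group means (6 high minus 6 low cells, log2 scale, horizontal axis) for each member that passed in 18 gene lists; circles are genes, red bars list medians, the black line and grey band the median and interquartile range of all 7537 genes, and numbers in brackets count members. Medians reach 1.43 for collagen folding genes, 1.40 for other fibrillar and 1.25 for non-fibrillar collagens, against 0.38 for general ER chaperones and -0.18 for housekeeping genes.

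Outside the cell the lists were less uniform. Of 9 processing and cross-linking genes that passed, 2 were higher and 3 lower by at least 1, with a median of 0.52. Pcolce, which enhances removal of the procollagen C-terminal propeptide, was at 11.76 ± 0.65 in high and 10.15 ± 1.45 in low cells, a difference of 1.62, the low mean being pulled down by cell 15 (7.38 at the lowest). The cross-linking enzyme genes differed in sign: Loxl1 by -1.89, Lox by 0.62 (-0.0143 without cell 15) and Loxl3 by 1.73. The list means of the groups overlapped almost wholly, at 4.32 to 6.00 and 4.18 to 6.23.

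Of 15 fibril-associated genes that passed, 8 were higher and 1 lower by at least 1, with a median of 1.13 that was 0.51 without cell 15 and 0.73 without cell 7. Biglycan (Bgn), a small proteoglycan, was at 9.14 ± 0.99 and 7.14 ± 1.81, lumican (Lum), which regulates fibril spacing, at 10.13 ± 0.75 and 8.73 ± 2.36, and fibronectin (Fn1) at 8.22 ± 1.07 and 8.80 ± 1.05. Thbs4, Postn and Thbs3, matricellular genes, differed by 2.82, 2.75 and 2.18. In cells 1 to 5 the list's median was -0.52, against 1.29 in cells 6 to 14 and 3.84 in cells 15 to 17, where each group had 1 cell, so the direction of the list did not hold in every set.

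Of 16 elastic fibre and microfibril genes 5 were higher and 1 lower, with a median of 0.26. Elastin (Eln) differed by 1.78 and Mfap2, a microfibril protein gene, by 1.60. Efemp1, for an extracellular glycoprotein, differed by -3.98 with SDs of 3.17 and 3.91. Of 8 collagen receptor genes 1 was higher (Itgb5, 2.00) and 1 lower (Ddr2, a receptor kinase for fibrillar collagen, -1.27), with a median of -0.36. Of 24 matrix degradation genes 3 were higher and 7 lower, with a median of -0.22; the protease inhibitor Timp3 differed by -2.55, Adamts1 by -1.96 and Mmp3 by 2.04.

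Genes that supply proline and glycine, the main residues of collagen, had a median difference of 0.82 over 13 genes, with 5 higher by at least 1 and none lower. The median was 0.30 without cell 17, 1.31 without cell 3, 1.32 without cell 15 and 1.23 without cell 7. The named members reached 1 in only part of the high cells. Pepd, the peptidase that frees proline from dipeptides, was at 6.41, 7.56, 7.12 and 7.07 in high cells 13, 1, 17 and 3 but at 0.00 and 0.24 in cells 8 and 14, and at 1.50 or less in every low cell. Pycr1, of proline synthesis, and Phgdh, of serine and glycine synthesis, differed by 2.54 and 2.49 and reached 1 in 3 and 4 high cells. Phgdh reached 1 in no other cell, and Pycr1 reached 1 in 5 cells in all. Phgdh and Pycr1 thus passed the value filter only through the high group. They are among the 5 genes counted as higher. Pycr1 was at 1.04 in low cell 5. Cell 9, between the groups, was at 6.45 for Pepd and 5.94 for Pycr1. The list's median was 0.08 with 8 cells a group.

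Regulators of collagen genes were not higher as a list. Of 20 genes 4 were higher and 4 lower by at least 1, with a median of -0.27. Ybx1, a nucleic acid binding protein gene, differed by 2.21. Creb3l1, for a membrane-bound factor that acts on secretory genes, differed by 1.13. Larp6, which binds a stem-loop of collagen messages, was under 1 in all high cells and reached 1 in 3 low cells, a difference of -2.04, and Cebpb differed by -2.09. Among 26 TGF-beta and BMP genes, the best known inducers of fibrillar collagen and their pathway, 3 were higher and 7 lower, with a median of -0.44 that was -0.13 without cell 11 and -0.21 without cell 15, and the antagonist Fst differed by -2.50. Among 16 IGF, FGF and PDGF genes 2 were higher and 7 lower, with a median of -0.76 that was 0.06 with 4 cells a group. Without cell 8, 5, 3 or 4 it was -0.33, -0.37, -0.44 or -0.49. Pdgfrl, a PDGF receptor-like gene, was an exception in that list at 2.88, with 6.65 to 7.54 in high and 0.76 to 7.39 in low cells.

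More inflammatory genes were lower than higher in the high cells. Of 20 chemokine and inflammation genes 11 were lower and 5 higher by at least 1, with a median of -1.11 that was -0.55 without cell 8. Il6, the cytokine gene, was at 6.21, 2.24, 5.31, 1.01, 5.18 and 9.28 in high cells 13, 1, 17, 8, 14 and 3. In low cells 4, 5, 11, 6, 15 and 7 it was at 8.90, 9.71, 7.38, 10.53, 5.71 and 8.20. The means were 4.87 ± 2.95 and 8.41 ± 1.72, a difference of -3.53, with cell 3 high among the high cells and cell 15 low among the low ones. Ptgs2, of prostaglandin synthesis, differed by -2.76 and the neutrophil chemokine Cxcl1 by -1.74, whereas the eosinophil chemokine Ccl11 differed by 2.57.

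The direction of the inflammatory list came from cells 6 to 14, where its median was -1.91, while it was 0.69 in cells 1 to 5 and 0.47 in cells 15 to 17. Its mean per cell overlapped widely, at 3.66 to 7.24 in high and 4.74 to 8.06 in low cells. The list of immediate-early and heat shock genes, known to respond to digestion of tissue, had a median of -0.25, with 9 of 32 lower and 3 higher by at least 1. Hspa1a differed by -2.91, Hspb1 by -2.66 and Nr4a1 by -2.52. Their part in the inflammatory differences was not tested.

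**Figure D4:**
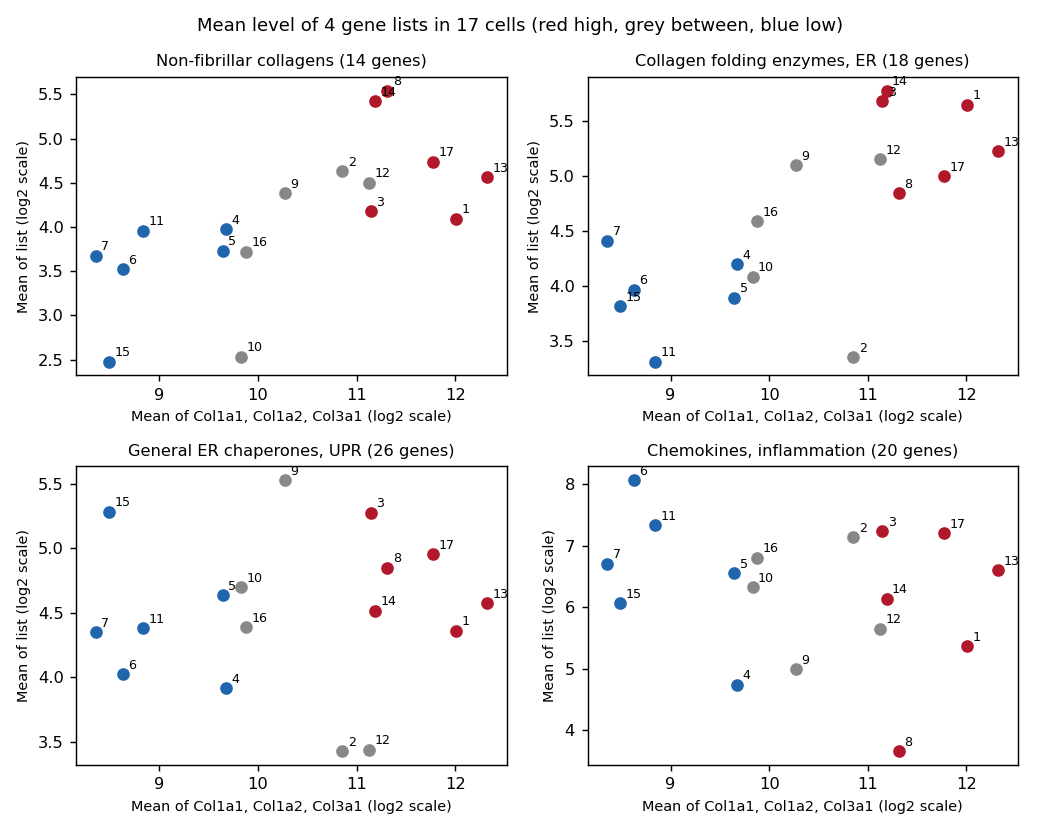
Mean deposited value over a gene list (vertical axis, log2 scale) against the 3-gene mean (horizontal axis, log2 scale) in 17 numbered cells, for 4 lists; red, grey and blue points are high, between and low cells. The groups stand apart for non-fibrillar collagens (4.10 to 5.54 against 2.48 to 3.98) and collagen folding genes (4.84 to 5.77 against 3.31 to 4.41) and overlap for general ER chaperones and for chemokine and inflammation genes.

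Over all 17 cells the per-cell mean of the non-fibrillar collagens had a Spearman rho of 0.80 with the 3-gene mean, and that of the collagen folding genes 0.73. Within the 6 high cells the same values were -0.26 and -0.43. Cell 2, between the groups at 10.85, had the folding genes at 3.35, inside the low range, and cell 10 had the non-fibrillar collagens at 2.53. Cells share a library design and the normalisation fixes each cell's sum, so these values are descriptions of 17 cells of 1 sample.

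Of 16 fascia and adventitia genes, which mark fibroblasts of deep skin layers and around vessels, 7 were lower (43.8%, beside 18.3% of all genes) and 1 higher by at least 1, with a median of -0.18. By set of cells that median was -0.28 (cells 1 to 5), -1.93 (cells 6 to 14) and -0.49 (cells 15 to 17). Efhd1, a mitochondrial calcium-binding protein gene on that list whose exons overlap Efhd1os, was at 0.65 to 1.49 in 5 high cells and 4.22 in cell 8, and at 5.08, 8.52, 8.07, 8.79 and 7.03 in low cells 4, 11, 6, 15 and 7. Cell 5 of the low group was at 0.00, which made the groups overlap. Pi16 and Cd55, of the same list, differed by -2.30 and -2.15. Of 6 papillary dermis genes 1 was higher and 2 lower, and of 8 reticular and hypodermal genes 2 were higher and 1 lower, with medians of -0.70 and 0.62.

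Next to these, 4 general lists had medians close to that of all genes. The 13 housekeeping genes had a median of -0.18, none differing by 1. The 79 ribosomal protein genes had a median of -0.0014 with 1 lower by at least 1, the 94 respiratory chain genes 0.13 with 15 higher and 12 lower, and the 23 actin and contractile genes 0.13 with 1 higher and 1 lower. Interferon and antigen presentation genes (17) had none past 1 in either direction. Cell cycle genes (14) had 3 in each direction, among them Ccnd1, cyclin D1, which reached 1 in 5 high cells and no low cell. Ccnd1 reached 1 in 6 cells in all, so it passed the value filter only through the high cells. Complement genes (16) had 6 higher and 1 lower, with a median of 0.53 that was 1.88, -1.26 and 2.43 in the 3 sets, and C1qbp differed by 3.51. Adipogenic genes (9) had 2 higher and 1 lower, with a median of 0.35.

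Whether the other 9 genes called higher share a role was not tested. Vkorc1 (chromosome 7, 127893063 to 127895617, minus strand), the vitamin K epoxide reductase of the ER membrane, was at 10.16 to 11.88 in high and 8.98 to 9.75 in low cells, a difference of 1.33. Tmem259, for an ER membrane protein, was at 1.78 to 5.35 and 0.08 to 0.25. Ncbp2, of the nuclear cap-binding complex, was at 4.01 to 7.51 and 0.33 to 1.84, the largest difference of a called gene at 4.69. Exons of Gm21974, Grin3b and Senp5 overlap these 3 genes in that order. Prorsd1 differed by 4.32, Isca1, of iron-sulfur cluster assembly, by 1.85, and AK157302 by 2.31.

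Ppa2, a mitochondrial pyrophosphatase, Grasp, a scaffold protein, and Crls1, the cardiolipin synthase, met the rule at very low values. Each of the 6 low cells was at 0.00 for Ppa2 and Grasp, while high cells spread from 0.30 to 5.12 and from 0.05 to 4.81. Crls1 was at 0.24 to 6.37 in high cells and at 0.19 or less in low cells. In such genes the groups are apart partly by hundredths, for example 0.24 against 0.19, and no fold is given.

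The 8 genes called lower were Pim3, Vps25, Samhd1, Tor1aip2, Dbn1, Cpd, Cd59b and Myof. Pim3, a serine/threonine kinase gene (chromosome 15, 88862186 to 88865726), was at 0.45, 0.74, 0.68, 0.16, 2.30 and 0.39 in high cells 13, 1, 17, 8, 14 and 3. In low cells 4, 5, 11, 6, 15 and 7 it was at 4.65, 3.91, 6.26, 6.88, 4.96 and 4.63. The difference was -4.43, and cells between took both states, with 0.47 and 0.30 in cells 12 and 9 and 5.81 or more in cells 2, 16 and 10. Vps25, of the ESCRT-II sorting complex, was even in low cells (7.23 to 8.51) and split in high cells, 3 at 5.99 to 6.57 and 3 at 0.36 to 1.39; exons of Ramp2 overlap it.

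Samhd1, a nucleotide triphosphate hydrolase, differed by -3.76, Tor1aip2, a partner of torsins at the ER whose exons overlap Tor1aip1, by -3.23, and the actin-binding Dbn1 by -2.74. The carboxypeptidase gene Cpd differed by -2.63 and Myof, of membrane repair, by -1.98. Cd59b, a complement inhibitor with the close paralog Cd59a, reached 1 in 3 low cells and no high cell. It passed the value filter only through the low cells. Its groups are apart by hundredths under the cut-off of 1, with the highest high cell at 0.78 and the lowest low cell at 0.81. Cell 16, between the groups, was at 2.39. The difference of -2.08 fell to -0.99 without cell 5.

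**Figure D5:**
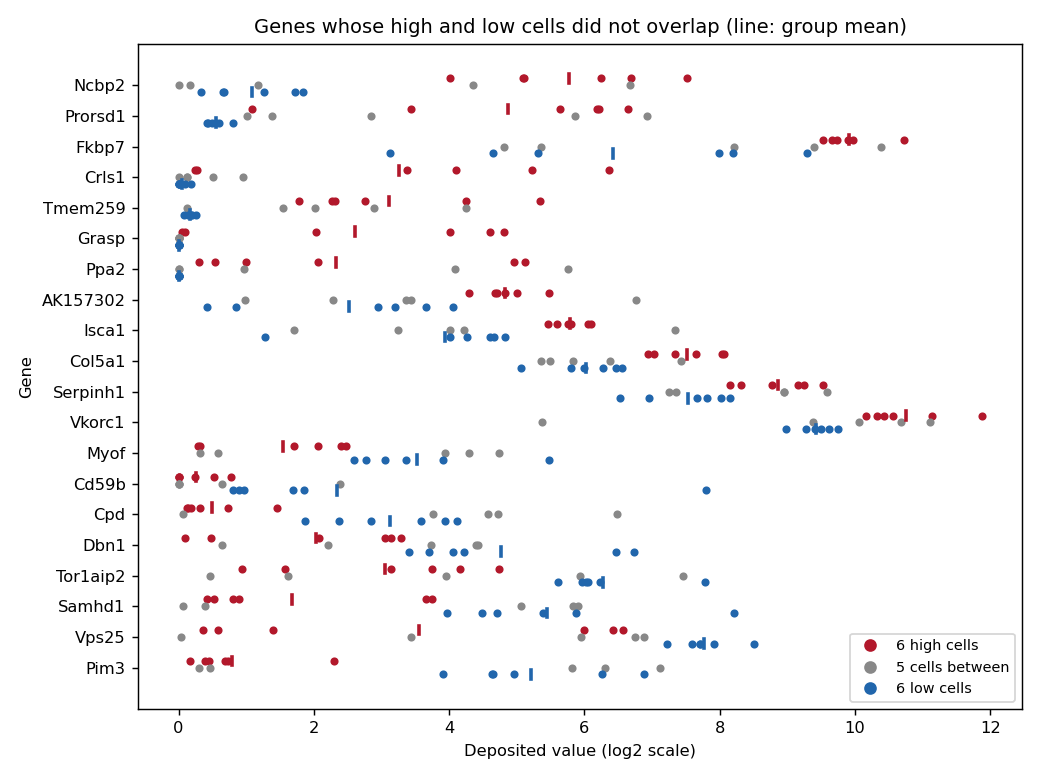
Deposited values (log2 scale, horizontal axis) of the 20 genes whose 6 high (red) and 6 low (blue) cells did not overlap and whose means differed by at least 1; grey points are the 5 cells between and short lines the means of the high and low cells. Fkbp7 is tight in high cells (9.52 to 10.72) and scattered in low cells (3.12 to 9.29), and Pim3 shows the reverse order of groups.

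The genes most like the 3-gene mean over the 17 cells, by Spearman rho among 7537 genes, were Grasp (0.81), Col5a1 (0.78), Crls1 (0.77), Ppa2 (0.77), Tmem263 (0.76), Serpinh1 (0.75), Fkbp9 (0.74) and Col6a2 (0.73). Grasp and Crls1 reached 1 in 4 high cells and in no other cell, so they passed the value filter only through the group the ranking chose. The same holds for Ppa2, which reached 1 in 5 cells, of which 3 were high. The genes most opposite to it were Taok3 (-0.76), Dock11 (-0.75), Pkn2 (-0.74), Mapk3 (-0.74), Bok (-0.73), Rbm17 (-0.72), Clpx (-0.70) and Atp5a1 (-0.70). Dock11, Bok and Clpx each reached 1 in 7 cells, of which 5 were low, so they passed the value filter only through the low cells. All these correlations were picked as the extremes of many genes in the cells that set the ranking.

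Which genes were called depended on how the cells were ranked. Serpinh1 was called under 16 of 17 other settings, all except centring each cell on its ribosomal protein genes, Fkbp7 and Ncbp2 under 15 of 17 and Col5a1 under 14 of 16. Pim3 was called under 15 of 17. By contrast AK157302 and Isca1 were called under 8 of 17 and Myof under 6 of 16. Ranking by scaled values, rescaling to one sum, the other pseudocount, group medians and the changed filters kept the same 6 and 6 cells. Groups of 4 and cells 6 to 14 alone used only part of them. A call under those settings was largely fixed in advance, so these counts overstate stability. AK157302 and Isca1 were called under no setting that brought another cell into a group. With cell 12 in place of cell 3 in the high group, 15 genes were called higher and 10 lower, of which 8 and 4 were among the original ones. When cells were ranked by Col5a1, Col5a2 and Col5a3 instead, both groups kept 5 of their 6 cells.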

How the data were processed

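The deposited table gives 1 log-scale value per gene and cell for 17 cells. Build GRCm38, TopHat2 and Cufflinks appear in the submitters' processing notes. No source used here states their versions or settings, or the base of the log. The values were read as log2(FPKM + 1). Libraries were made with SMART-Seq v4 3' DE, which reads transcript ends, and Nextera XT, per the labels. The sorted deposited log2 values differed between cells by at most 0.0167 above 3, the form of quantile normalisation, so read counts and depth are unknown.

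Of 8446 rows the highest-mean row of each symbol was kept (8431), and 8419 identifiers (99.86%) matched GENCODE M21, the source of gene coordinates and exon overlaps. Cells were ranked by the mean of Col1a1, Col1a2 and Col3a1. Genes at 1 or more in at least 3 cells were compared by the difference of group means and by overlap of the 6 and 6 cells; no test was run. The ranking and the lists were chosen with earlier results of these data known. Named genes came from a pool, and not every gene of the pool is named. It held the ranking genes, called genes, Prrx1 and all members of 2 collagen lists that passed the filter. It also held the 3 members of each other list with the largest absolute difference and the 8 genes most and least like the 3-gene mean. Col12a1, Col14a1, Col16a1, Col6a1, Col6a3, Bgn, Lum, Fn1, Lox, Cxcl1, Hspa5, Hsp90b1, Mia3 and Creb3l1 were added after their values were seen. Alternatives covered ranking, group size, cells left out, sets of cells, scaling, pseudocount and filter. The code for the differences was checked on simulated data. Promoter sequences are from RefSeq (GRCm38.p6), where 15 of 19 measured collagen folding genes and 9 of 12 genes called higher had an entry. Python 3.11.15, numpy 2.4.6, pandas 2.3.3 and matplotlib 3.10.9 were used.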

Additional observations from a re-analysis of the deposited data

How the results depend on the processing

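The 12 genes called higher and 8 called lower became 103 and 108 with 4 cells a group, 2 (Serpinh1 and Ppa2) and 0 with 8 a group, 349 and 361 with 3 a group in cells 6 to 14 alone, and 7 and 5 among genes with a mean of 3 or more. Smaller groups overlap less by construction. With set means subtracted 19 were higher. Leaving out 1 cell gave 16 to 24 higher and 12 to 20 lower. The median of the other fibrillar collagens was 0.28 when ranked by Col5a1, Col5a2 and Col5a3, which leaves only Col27a1. The non-fibrillar median was 2.02 in cells 6 to 14. The collagen folding median was 1.04 ranked by Col1a1 alone, 0.89 with 8 a group and 1.92 with a mean of 3 or more. The proline and glycine median was 0.083 with 8 a group and 0.016 with a mean of 3 or more, where the TGF-beta and BMP median was -1.13. The IGF, FGF and PDGF median was 0.0011 ranked by Col1a1 alone, 0.065 with 4 a group and -0.14 with set means subtracted. The cause of these changes was not tested. The medians of the 2 collagen lists, the folding, fibril-associated, ER entry and proline lists stayed above 0, and those of the TGF-beta and inflammatory lists below 0, under each alternative of ranking, group size, cells, scaling, pseudocount and filter and with any 1 cell left out. Within single sets of cells this did not hold, as the chemokine median was 0.69 in cells 1 to 5 and 0.47 in cells 15 to 17, the TGF-beta and BMP median 0.034 in cells 15 to 17 and the fibril-associated median -0.52 in cells 1 to 5.

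Named genes that differed by at least 1 and changed sign when cells were ranked, grouped or scaled otherwise were Cfd (-0.11) and Colgalt1 (-0.28) ranked by Col3a1 alone, Colgalt1 (-0.0058) and Mmp3 (-0.039) ranked by the type V genes, Col12a1 (0.054) ranked by Col1a1 alone and Cyr61 (0.41) by group medians. In cells 6 to 14 they were Csf1r (-0.0007), Fmo1 (-0.51), Gpx3 (-0.38), Rspo1 (0.64) and Tgm2 (0.46), and with 4 a group Kcnj8 (0.11), Rspo1 (0.54) and Tgm2 (1.03). Lrig1 was at 1.27 ranked on linear values, 1.15 by Col3a1 alone, 0.049 by the type V genes and 0.092 centred on ribosomal protein genes, where Tek was at 0.34. That centring moved the median of all genes to 0.24. No paired analysis was possible because all cells belong to 1 group of the study and the labels give no shared replicate numbers. Depth is unknown, so no limit of detection can be given.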
